A study of Mus musculus with 54 samples.

Results

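The nuclear genes of the mitochondrial respiratory chain and ATP synthase were followed in mouse embryonic stem (ES) cells and their derivatives. The genes were chosen by name alone: every entry whose symbol starts with Nduf, Uqcr, Sdh followed by a to d, Cox4 to Cox8, or Atp5. The rule found 94 genes, the same ones in both deposited expression tables, which list 38363 entries for cells treated with retinoic acid (RA) and 39055 usable ones for cells after withdrawal of leukemia inhibitory factor (LIF) and for lineages. Not all 94 encode subunits. The 7 Ndufaf and 2 Sdhaf genes encode assembly factors, Cox7a2l a factor that joins complexes into supercomplexes, and Atp5s and Atp5sl are now named Dmac2l and Dmac2, so these 12 are described apart. Subunits encoded in mitochondrial DNA were not analysed here.

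The respiratory chain passes electrons from NADH, through complex I, and from succinate, through complex II, to complex III and then, by way of cytochrome c, to oxygen at complex IV. Complexes I, III and IV move protons across the inner mitochondrial membrane, and ATP synthase (complex V) lets them flow back to make ATP. ES cells are known for a high rate of glycolysis, and several complex IV subunits have a second gene used in muscle, testis or low oxygen. Transcripts were measured here, not protein or respiration.

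In the RA set, all cells were of the 46C line (strain 129/Ola), kept for a day with LIF and inhibitors of 2 kinases and then given 2 µM RA in serum-free N2B27 medium. Wild-type (WT) cells, as libraries WT-1 and WT-2, were compared, at days 2 and 4, with cells lacking 58 kb around Haunt, a long noncoding RNA gene (58 kb KO, sequenced as KO-i and KO-j). In the LIF set, the columns of days 0, 2 and 6 without LIF are named by day with no line and were judged from their decimals to be the authors' means over the 3 (CJ7 and JF4), 2 (J1 and CJ7) and 3 (JF4, J1 and CJ7) WT libraries labelled with that day, so the mixture of lines would differ by day, and the column of day 4 is 1 library of CJ7. Neural progenitors (NPC) and neural stem cells (NSC, sorted, then grown to passage 15 with EGF and FGF-2) came from 46C, whose GFP sits in Sox1, after 6 days in N2B27. Mesendoderm cells (ME) were sorted from a line with GFP in T after 6 days without LIF. NPC, NSC and ME are 1 library each, and no sample of the LIF set carries a deletion.

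Haunt (listed as Gm15055) stood at 128 and 142 FPKM in WT-1 and WT-2 on day 2 and at 31.8 and 40.6 on day 4, against 0 to 3.08 in the 4 KO libraries. FPKM is a level per length (fragments per kilobase, scaled to depth), so genes can be compared within a table. The comparison is less safe for short genes, whose values depend most on the length used. Depth estimated from the steps between low values ran from 9.09 M (KO-i at day 2) to 16.4 M fragments (KO-j at day 2) over the 8 RA libraries. Pluripotency markers (Pou5f1, Nanog, Zfp42, Esrrb and Sox2; all 5 detected) summed to 427 and 546 FPKM in WT and to 213 (KO-i) and 454 (KO-j) in KO at day 2, and to 48.6 to 105 over the 4 libraries of day 4. KO-i was thus lower than the other libraries of its day at both days. In the LIF set the same sum fell from 1523 at day 0 to 226 at day 6, mesendoderm markers summed to 425 in ME, and neural progenitor markers to 330 in NPC and 541 in NSC. In bulk RNA, fewer cells of a type and less RNA per cell cannot be told apart.

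Promoter sequence was available from RefSeq (GRCm38.p6) for 78 of the 94 genes, each as 250 bases before and 50 after the start site; those without an entry include Atp5a1, Cox4i1, Cox4i2, Cox6a2, Cox6c, Cox8c, Ndufa2, Ndufa4l2, Ndufaf6, Ndufb9, Ndufs1, Sdhc, Uqcrb, Uqcrc2 and Uqcrq. NRF1, the ETS factor GABP (also NRF-2) and YY1 are regulators long tied to respiratory genes, and their core letters were searched on both strands. GCGCATGC, the NRF1 core, stood in 12 of the 78 genes (15.4%), against 3.05% of 27025 genes with a promoter. In 7 of the 12 it was found on both strands, since GCGCATGC and its reverse complement overlap. The following windows, chosen to show a gene of each complex, have it in capitals; GCATGCGC is the same core on the other strand.

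Uqcr11, chr10:80406807-80406836, minus strand: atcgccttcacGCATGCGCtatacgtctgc
Sdhb, chr4:140961206-140961235, plus strand: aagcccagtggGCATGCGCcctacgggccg
Cox6a1, chr5:115349102-115349131, minus strand: acaggaacgggGCGCATGCgcgctctcgct
Ndufa11, chr17:56717691-56717720, plus strand: acctgcactgcGCGCATGCgcgcacgcctt
Atp5g2, chr15:102671071-102671100, minus strand: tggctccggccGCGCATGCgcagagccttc

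AAGATGGC, the YY1 core, stood in 11 of the 78 genes (14.1%), against 3.19% of all genes. In 9 of the 11 it lay on the gene's own strand after the start site (11.5% of the 78), as in 1.04% of all genes; in the 9 members the place was 23 to 39 bases after the start. The letters hold an ATG, and coding starts were not used here. The windows of 4 complex I genes show how alike these places are; Ndufs6, Ndufb8 and Ndufc1 are among the genes that fell on RA below, and Ndufs7 encodes a core subunit.

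Ndufs6, chr13:73328433-73328460, minus strand: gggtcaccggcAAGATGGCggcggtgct
Ndufb8, chr19:44555393-44555415, minus strand: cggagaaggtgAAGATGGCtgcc
Ndufc1, chr3:51408915-51408944, minus strand: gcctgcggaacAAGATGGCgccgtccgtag
Ndufs7, chr10:80249462-80249491, plus strand: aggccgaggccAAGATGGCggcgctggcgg

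CCGGAAGT, the ETS core, stood in 5 of the 78 genes (6.41%), against 4.31% of all genes, and any of the cores in 27. Of the 14 genes with a promoter entry that fell in WT on RA, described below, 5 held any of the cores, a share like that of all 78. Members' windows held a median of 15 CpG in the 250 bases before the start, against 6 over all windows. A pair of complex IV genes shows a difference between members, counted over a shorter stretch. Cox7a1, the form of subunit VIIa used in heart and skeletal muscle, had 4 CpG in the 150 bases before its start, while its ubiquitous counterpart Cox7a2 had 11. CpG are not marked in these runs, which end at the base before the start site.

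Cox7a1, chr7:30184021-30184170, plus strand: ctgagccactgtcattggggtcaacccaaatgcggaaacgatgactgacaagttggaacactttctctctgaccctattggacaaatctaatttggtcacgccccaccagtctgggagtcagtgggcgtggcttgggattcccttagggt
Cox7a2, chr9:79759854-79760003, minus strand: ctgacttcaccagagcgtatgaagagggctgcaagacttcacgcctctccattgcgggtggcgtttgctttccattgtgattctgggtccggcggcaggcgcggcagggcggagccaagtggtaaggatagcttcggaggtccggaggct

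Members were abundant at day 2 of RA. Their median over the 92 genes tested was 105 FPKM in the WT mean, against 7.68 over all 15705 genes tested, and 6 genes (Atp5b, Atp5g2, Atp5j2, Cox6a1, Cox7c and Cox8a) reached 500 FPKM. Together the 94 genes held 2.50% to 2.88% of the summed FPKM of the RA libraries. The 12 genes from 1 to under 10 FPKM were the assembly factors Ndufaf1, Ndufaf4, Ndufaf5, Ndufaf6, Ndufaf7, Sdhaf1 and Sdhaf2, the isoform genes Cox4i2, Cox6a2, Cox8c and Ndufa4l2, and Atp5s. Cox7b2 and Cox8b, isoforms of testis and of muscle and brown fat, were listed at 0 in all 8 libraries and were not tested.

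From day 2 to day 4 of RA the WT cells lowered a set of respiratory genes and raised none. Of the 92 genes, 18 were lower at day 4 (19.6%, against 10.9% of all 15705 genes called lower), and none was higher (against 14.4% of all genes), at a Benjamini-Hochberg adjusted p under 0.05 in limma. The median difference was -0.19 on the log2(FPKM + 1) scale, with 65 of 92 below 0, while the median over all genes was +0.04. A high level went with a fall in general: among genes of at least 100 FPKM, 12 of 45 members and 20.5% of all 721 genes were called lower, with medians of -0.20 and -0.12. In KO the same 45 had 5 lower calls, against 20.8% of the 721 genes, and their medians, -0.15 and -0.14, were alike. Among genes of 10 to 100 FPKM the medians were -0.19 for 36 members and +0.06 for all 6347 genes in WT, and -0.15 and +0.06 in KO. Of these 36 members, 4 were called lower in WT, against 10.7% of the 6347 genes, and 2 in KO, against 7.31%. These counts are near or below the shares over all genes of that level.

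In the 58 kb KO cells the median lay in the same direction, at -0.18 with 69 of 92 below 0, while the median over all genes was +0.04. There 8 of 92 genes were lower in the main fit (8.70%, against 7.81% of all genes), a count near the share over all genes. Sdhaf2 was the 1 gene called higher (against 10% of all genes). All 8 genes called lower in KO were among the 18 of WT, which is 44.4% of the WT set; of all genes called lower, 919 were shared, which is 53.6% of 1713 in WT and 75% of 1226 in KO. The shared 8 are Atp5b, Cox6c, Cox7a1, Cox7c, Ndufa4l2, Ndufb3, Ndufb8 and Ndufv3. The KO count depended on the fit. With upper-quartile scaling 15 members were lower in KO, beside 1450 of all genes. More members also passed in KO with the library name as a block, as given with the processing below. The nearness to the share over all genes therefore holds for the main fit only.

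**Figure D1:**
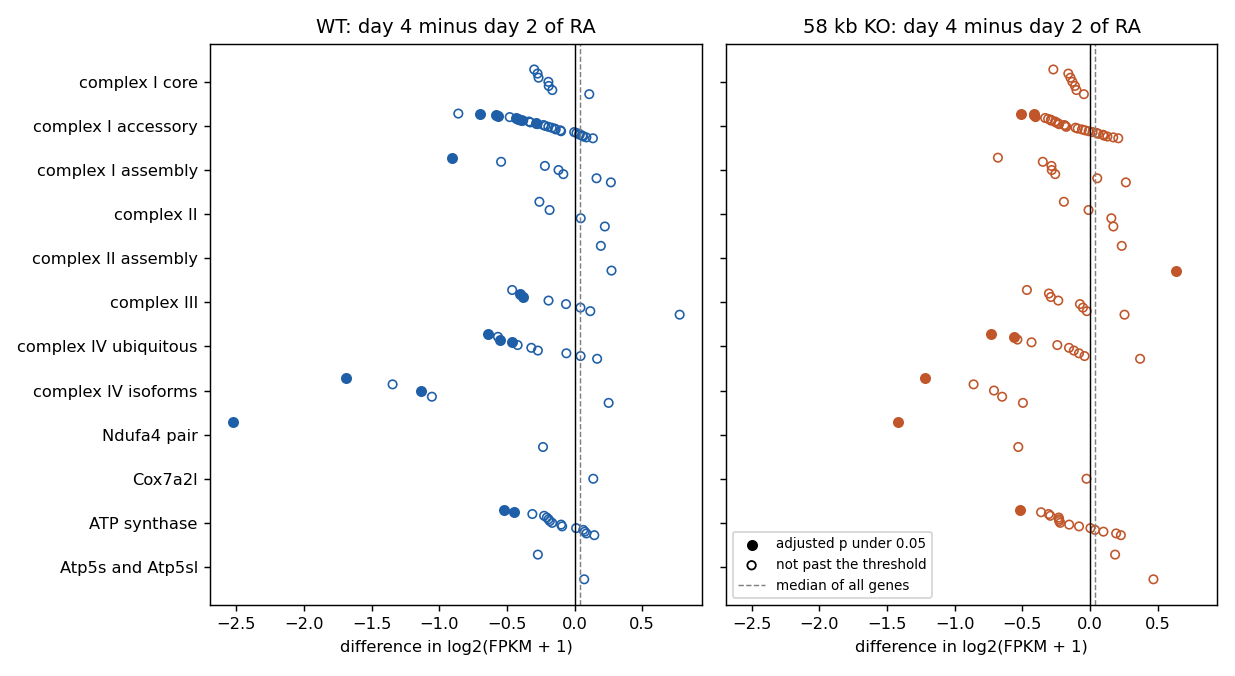
Difference between day 4 and day 2 of RA in log2(FPKM + 1) for each of the 92 genes tested, by role, in WT (left) and 58 kb KO (right); filled points passed an adjusted p under 0.05 in limma and the dashed line is the median over all genes. Most points lie to the left of 0 in both genotypes, and Ndufa4l2 (-2.53 in WT, -1.42 in KO) and Cox7a1 (-1.69, -1.22) lie farthest left among the filled ones.

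Counts of calls by complex, here and below, are small and stand against 10.9% of all genes lower in WT and 7.81% in KO. Within complex I, the 7 core genes, which carry the flavin and iron-sulphur centres, had no call in either genotype. Their medians were -0.19 in WT, as over all members, and -0.13 in KO, with 6 and 7 of 7 below 0. Ndufv1, the subunit that binds NADH, read 68.8 and 69.1 FPKM in WT on day 2, then 50.7 and 61.6 at day 4, a difference of -0.30 (SE 0.11, limma adjusted p = 0.0854). The iron-sulphur subunits Ndufs1, Ndufs7, Ndufs8 and Ndufv2 differed by -0.27, -0.19, -0.27 and -0.16 in WT, and Ndufs3, the core gene above 0, by +0.11.

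Of the 29 accessory subunits, which surround the core, 7 were lower in WT (Ndufs6, Ndufc1, Ndufc2, Ndufb3, Ndufb8, Ndufb4 and Ndufv3) and 3 in KO, with medians of -0.22 and -0.18 that lie close to those of the core genes. Ndufs6, which holds a zinc site needed for assembly, went from 153 and 176 FPKM to 89.2 and 113 in WT (-0.70, SE 0.13, limma adjusted p = 0.00846) and from 148 and 144 to 109 and 111 in KO (-0.41, adjusted p = 0.0676). The libraries of the 2 days did not overlap in either genotype. Ndufb3, a small membrane-arm subunit, went from 102 and 84.8 FPKM to 59.0 and 64.2 in WT (-0.58, adjusted p = 0.0174) and from 102 and 94.5 to 75.4 and 62.0 in KO (-0.51, adjusted p = 0.0368).

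Ndufc1 and Ndufc2, neighbours in the membrane arm, fell in WT by 0.57 and 0.43 on the log2 scale (limma adjusted p = 0.0137 and 0.0143). In KO they differed by -0.26 and +0.06 and did not pass. Ndufc2 read 75.03 and 69.5 FPKM in KO at day 2 and 74.4 and 76.4 at day 4, so that the days overlapped. The difference of its day effect between the genotypes was +0.49 (SE 0.13), the smallest p of all members for that contrast, and it did not pass (limma adjusted p = 0.71).

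Of the assembly factors, Ndufaf6 was lower in WT, from 9.501 and 10.1 FPKM to 4.21 and 5.39 (-0.90, SE 0.18, limma adjusted p = 0.0114). Its KO values, 7.13 and 5.61 at day 2 and 5.71 and 4.42 at day 4, overlapped between days. None of the other 6 Ndufaf genes passed in either genotype.

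Complex II, the succinate dehydrogenase shared with the citrate cycle, had no call among its 4 subunits. Sdha, the flavoprotein, read 78.6 and 80.7 FPKM in WT on day 2, then 63.8 and 69.0 at day 4 (-0.26, limma adjusted p = 0.0946), while Sdhd, a membrane anchor, read 47.9 and 55.7 and then 59.1 and 61.9 (+0.22, adjusted p = 0.187). Sdhb and Sdhc differed by -0.18 and +0.05. Sdhaf2, the factor that helps attach the flavin to Sdha, rose in KO from 8.54 and 8.33 FPKM to 15.1 and 12.3 (+0.63, SE 0.13, adjusted p = 0.0193). In WT it read 8.60 and 8.61 and then 11.0 and 10.2 (+0.27, adjusted p = 0.167). It, Sdhd and Cox7a2l (+0.14, adjusted p = 0.394) had the smallest p among WT members above 0. In KO, Sdhaf2 was followed by Uqcr11 (+0.26, adjusted p = 0.0733) and Atp5s (+0.47, adjusted p = 0.144).

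In complex III, Uqcrc1, a core protein, and Uqcrq, a small subunit, were lower in WT. Uqcrc1 read 142 and 141 FPKM and then 108 and 110.0 (-0.38, SE 0.09, limma adjusted p = 0.0174). In KO it read 119 and 131 and then 100.0 and 104 (-0.29, adjusted p = 0.0553), also without overlap. Uqcrq differed by -0.40 in WT (adjusted p = 0.0201) and by -0.02 in KO. Uqcrc2, the other core protein, and Uqcrfs1, the Rieske iron-sulphur protein, did not pass in either genotype (+0.12 and -0.19 in WT).

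Among the ubiquitous genes of complex IV, Cox7c, Cox8a and Cox6c fell in WT. At day 2 Cox7c, a small structural subunit, stood at 755 and 739 FPKM (WT) and 701 and 708 (KO). At day 4 it read 434 and 527 in WT and 419 and 427 in KO. All 4 libraries of day 4 were below all 4 of day 2, and the differences were -0.64 (SE 0.11, limma adjusted p = 0.00597) and -0.73 (SE 0.11, adjusted p = 0.00713).

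Cox8a and Cox6c, subunits of the membrane part, followed Cox7c in WT with -0.55 and -0.46 (limma adjusted p = 0.0194 and 0.0321), and Cox6c also in KO with -0.56 (adjusted p = 0.0241). Cox8a did not pass in KO (-0.43, adjusted p = 0.0553). Against these, Cox4i1, the ubiquitous form of the largest nuclear subunit, read 522 and 456 FPKM in WT on day 2, then 550 and 546 at day 4 (+0.17, adjusted p = 0.509). Cox6a1 (-0.32 in WT), Cox5a (-0.57), Cox5b (-0.27) and Cox7b (-0.06) did not pass either. Of the 10 ubiquitous complex IV genes, 3 were lower in WT and 2 in KO, with medians of -0.37 and -0.20.

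Of the 5 tested complex IV isoform genes of restricted tissues, 2 were lower in WT (Cox7a1 and Cox6b2) and 1 in KO (Cox7a1). Cox7a1 (mm9 chr7:30969190-30971049) had 60.6 and 59.1 FPKM (WT) and 38.1 and 64.1 FPKM (KO) at day 2, and 21.2, 15.0, 19.6 and 21.7 in the same order at day 4. All libraries of day 4 were below all of day 2, with differences of -1.69 (SE 0.24, limma adjusted p = 0.00357) in WT and -1.22 (SE 0.24, adjusted p = 0.0179) in KO. Cox7a2, its counterpart, read 105 and 112 FPKM and then 80.4 and 80.9 in WT (-0.42, adjusted p = 0.0888). Cox7a1 therefore made up 36.6% and 34.5% of the summed level of the pair in WT at day 2, and 20.8% and 15.6% at day 4.

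Cox6b2 (mm9 chr7:4703396-4704696), the form of subunit VIb typical of testis, read 262 and 246 FPKM in WT on day 2, then 129 and 103 at day 4 (-1.14, SE 0.32, limma adjusted p = 0.0363). In KO it read 186 and 326 and then 118 and 208, which overlap between days (-0.65, adjusted p = 0.194). Its counterpart Cox6b1 stayed between 291 and 387 FPKM in all 8 libraries (+0.04 in WT, -0.04 in KO). Cox6b2 held 45.7% and 44.3% of the pair in WT at day 2 and 28.04% and 24.9% at day 4; in KO-j it held 51.8% and 41.6%, and in KO-i 32.5% and 23.6%.

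Ndufa4l2 (mm9 chr10:126951995-126954210), known for its rise in low oxygen, went from 9.04 and 7.68 FPKM to 0.66 and 0.58 in WT and from 1.77 and 3.65 to 0.36 and 0.33 in KO. The differences were -2.53 (SE 0.26, limma adjusted p = 0.0011) and -1.42 (SE 0.26, adjusted p = 0.013). Ndufa4, its relative and a complex IV subunit despite its name, stayed at 221 to 390 FPKM in all 8 libraries and did not pass (-0.23 and -0.53). Cox8c, Cox6a2 and Cox4i2, at 0 to 6.29 FPKM, did not pass in either genotype (-1.34, -1.05 and +0.25 in WT), and Cox8c was listed at 0 in WT-1 at day 4.

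**Figure D2:**
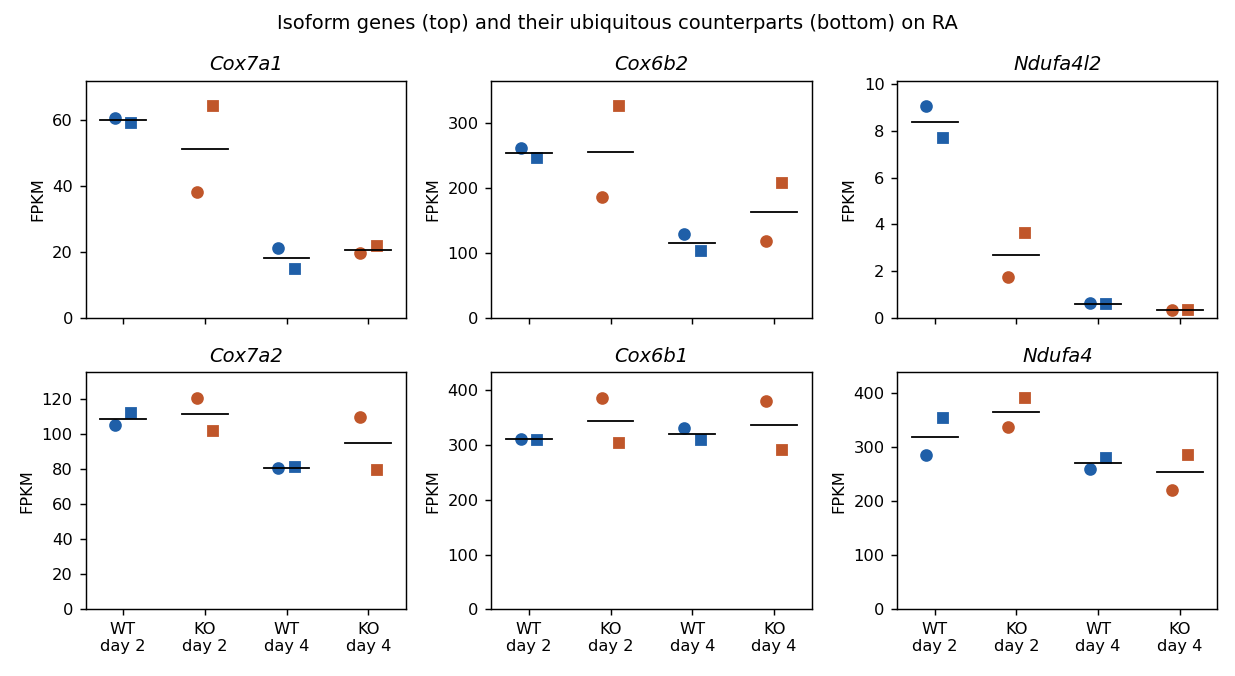
FPKM of 3 isoform genes (top) and of their more widely used counterparts (bottom) in each RA library; circles are WT-1 and KO-i, squares WT-2 and KO-j, WT in blue, 58 kb KO in orange, and the lines are group means. Cox7a1 goes from 60.6 and 59.1 to 21.2 and 15.0 in WT, Cox6b2 overlaps between the days in KO, and Cox6b1 stays between 291 and 387.

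The muscle markers Myh6, Myh7, Actc1 and Tnnt2 summed to 0.554 to 2.04 FPKM at day 2 and to 11.5 to 20.0 at day 4, where Actc1, the only one of the 4 tested, alone read 11.0 to 18.5. Myh6 was lower at day 4 (0.0851 to 0.173 FPKM) than at day 2 (0.346 to 0.677), and Tnnt2 was listed at 0 in both WT libraries of day 4. The pluripotency sum given above fell over the same days in both genotypes, all 5 genes passing in each. Endoderm markers (Gata4, Gata6, Sox17, Sox7 and Dab2) summed to 38.4 to 60.7 FPKM at day 2. At day 4 they summed to 154 and 164 in WT and to 86.6 and 95.8 in KO, 4 of the 5 rising in WT and 2 in KO. Against WT at day 4, all 5 were lower in KO (median -0.81), and none passed in limma (smallest adjusted p = 0.134). The part of these markers in the fall of the respiratory genes was not tested.

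ATP synthase had 2 lower calls among 15 genes in WT and 1 in KO, which is near the 10.9% and 7.81% of all genes. Atp5b (mm9 chr10:127520363-127527444), the catalytic beta subunit and the most abundant member of WT at day 2 and of LIF day 0, stood at 783 and 825 FPKM (WT) and 734 and 746 FPKM (KO) at day 2. At day 4 it read 553 and 569 in WT and 519 and 512 in KO. The days did not overlap, with -0.52 (SE 0.08) in each genotype (limma adjusted p = 0.00492 in WT and 0.00858 in KO). Atp5a1, the alpha subunit that alternates with it in the F1 head, read 389 and 421 and then 337 and 373 FPKM in WT and did not pass (-0.19, adjusted p = 0.162). The other F1 genes, Atp5c1, Atp5d and Atp5e, differed by +0.06, +0.15 and -0.17 in WT without passing.

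The c ring of the membrane rotor is encoded by 3 genes with the same mature protein. Atp5g1 fell in WT from 239 and 266 FPKM to 174 and 197 (-0.45, SE 0.12, limma adjusted p = 0.0273), and differed by -0.31 in KO (adjusted p = 0.108). Atp5g2 (547 and 526 FPKM in WT on day 2, 522 and 561.6 at day 4; +0.01) and Atp5g3 (-0.09) did not pass. Atp5g2 held 49.2% to 56.9% of the summed c ring level in the RA libraries. In NPC, which came from the same line, it held 29.8%, and the RA libraries were made with another kit, per the labels. The part of the kit in these shares was not tested.

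**Figure D3:**
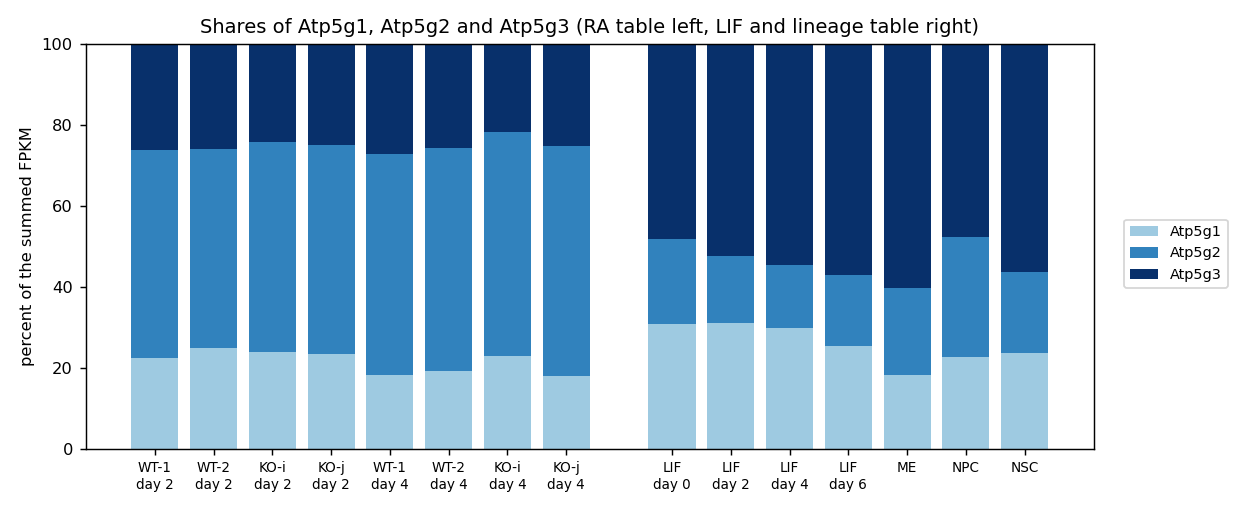
Share of Atp5g1, Atp5g2 and Atp5g3 in the summed FPKM of the 3 c ring genes, in percent, for each RA library (left) and each column of the LIF and lineage table (right). Atp5g2 is the largest part in every RA library (49.2% to 56.9%) and Atp5g3 in 7 of 7 columns on the right (47.6% to 60.3%). The libraries on the left and right were made with different kits, per the labels.

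The calls of single genes depended on the number of libraries. Leaving out 1 WT library gave 5 (without WT-1 at day 2), 6 (without WT-2 at day 2), 5 (without WT-1 at day 4) or 8 (without WT-2 at day 4) calls among the members, in place of 18. Atp5b, Cox7a1, Cox7c and Ndufa4l2 passed in all 4 of these fits, with limma adjusted p of at most 0.0438, and Ndufs6 in 3 of them. In KO the called genes also changed with the library left out. Some of the 9 were no longer called in each of these fits, and in some fits other members came in. Cox7c was still called with each KO library left out. The effect in KO was not shown to differ from that in WT. None of the members passed for the difference of the day effects (against 0% of all genes, in either direction). An unadjusted p under 0.05 was found for 873 of all 15705 genes and for 6 members, all 6 above 0 (KO minus WT). Next to Ndufc2 these were led by Ndufa4l2 (+1.11) and Uqcrq (+0.38), and the smallest p below 0 were those of Cox4i2 (-0.75), Ndufaf1 (-0.46) and Ndufa4 (-0.30).

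Removal of the Haunt locus changed no respiratory gene past the threshold. At day 2 no member passed in limma (against 0.00637% of all genes called higher and 0.0191% called lower), and the median difference was -0.02. An unadjusted p under 0.05 was found for 3 members, beside 803 of all 15705 genes. At day 4 again none passed (against 0% in each direction), with a median of +0.02, and 8 members, beside 2263 of all genes, had an unadjusted p under 0.05. With 2 libraries per group the lack of calls does not show that the levels were equal.

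The member with the smallest p at day 2 was Ndufa4l2, at 1.77 and 3.65 FPKM in KO against 9.04 and 7.68 in WT (-1.38, SE 0.26, unadjusted p = 0.000815, limma adjusted p = 0.471). Ndufaf6 (-0.56) and Ndufv3 (-0.21) came next, and above 0 Cox8c (+0.88), Ndufb7 (+0.20) and Ndufa3 (+0.22). At day 4 the smallest p were those of Uqcr11, a small subunit of complex III, at 338 and 350 FPKM in KO against 265 and 280 in WT (+0.34, adjusted p = 0.192), of Ndufv3, at 82.3 and 80.5 against 99.4 and 107 (-0.34, adjusted p = 0.195), and of Ndufc2 (+0.30, adjusted p = 0.242). The groups of these 3 genes did not overlap at day 4. Cox8c (+1.36) followed above 0, and Uqcrfs1 (-0.35) and Atp5j (-0.21) below.

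In both KO libraries the median over all genes of some chromosomes differed from WT. Position along a chromosome was not examined. In KO-i the median over 507 genes of chromosome 1 with a mean of at least 5 FPKM stood +0.31 log2 units above the WT mean at day 2 and +0.29 at day 4, and in KO-j at +0.01 and -0.02. The 6 members on chromosome 1 (among them Cox5b, Ndufa10, Ndufb3, Ndufs1 and Sdhc) were all higher in KO-i than in the WT mean at both days, with medians of +0.30 and +0.39, while in KO-j 3 of the 6 were higher at each day. The 78 other members of that level had medians of -0.04 and +0.02 in KO-i.

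Sdhc, a membrane anchor of complex II, read 108 FPKM in KO-i at day 2 and 123 at day 4, against 78.1 and 85.7 in KO-j and 83.7 to 98.8 in the 4 WT libraries. For Sdhc the KO mean is thus set apart from WT by KO-i alone. In KO-j the largest shift was on chromosome 6, with medians of +0.20 and +0.15 over 405 genes, and the 4 members there (Ndufa4, Ndufa5, Ndufa9 and Ndufb2) had medians of +0.22 and +0.04. Smaller shifts included chromosome 14 in KO-i (+0.14 at day 2 and +0.09 at day 4). The X chromosome at day 4 stood at -0.12 in KO-i and -0.10 in KO-j. The part of these shifts in the members' values was not tested.

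Some members of other chromosomes were also high in KO-i. Cox4i1 (chromosome 8) read 808 FPKM in KO-i at day 4 against 546 to 584 in the other libraries, and Atp5f1 (chromosome 3), a stalk subunit of ATP synthase, 209 against 132 to 147 in the other libraries of that day. These 2 were chosen after their values were seen.

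**Figure D4:**
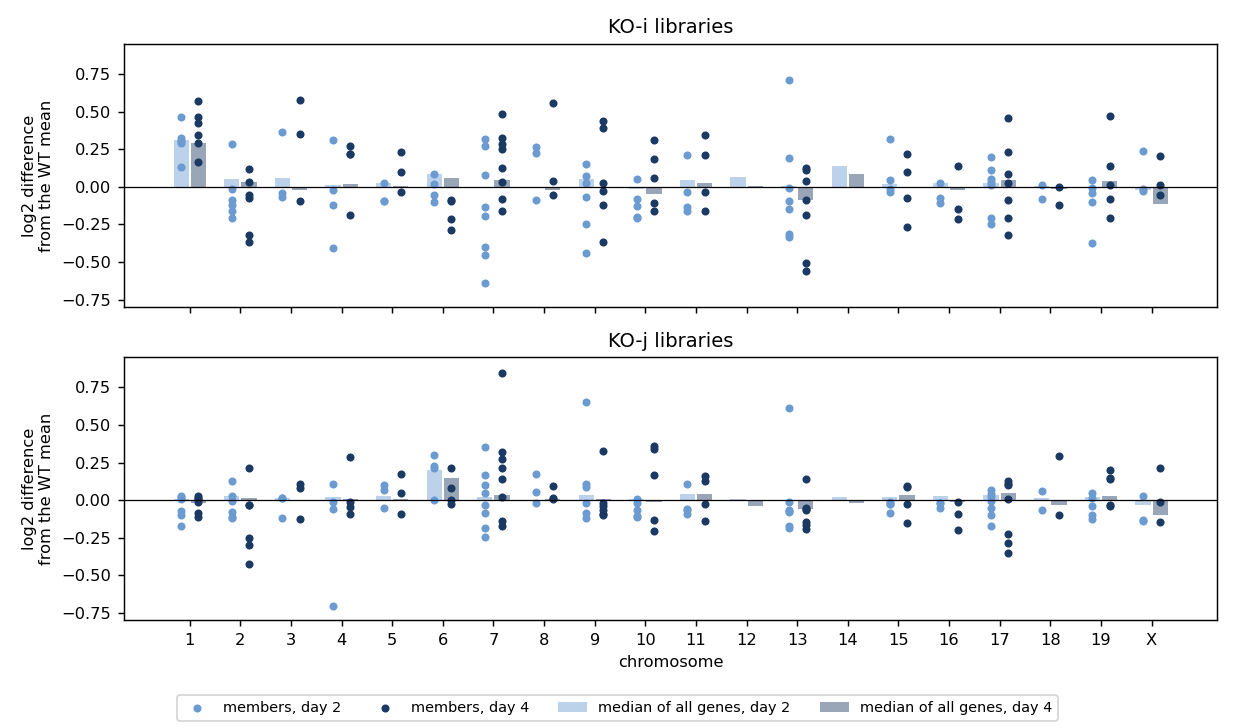
Difference of KO-i (top) and KO-j (bottom) from the WT mean of the same day in log2(FPKM + 1), by chromosome; bars are medians over all genes with a mean of at least 5 FPKM, points are members of that level, without Ndufs5, and light and dark mark days 2 and 4. In KO-i the bars of chromosome 1 reach 0.31 and 0.29 with all 6 members above 0, and in KO-j those of chromosome 6 reach 0.20 and 0.15.

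After LIF withdrawal the members ran lower than at day 0 as a group. Of the 90 genes kept (those reaching 1 FPKM in 2 or more of the 7 columns), 74 were below their day 0 level at day 2, 70 at day 4 and 64 at day 6, with median differences of -0.18, -0.28 and -0.21 log2 units. Medians over all 12510 genes were +0.04, -0.02 and +0.10. These columns have no spread of their own, and the labelled lines differ by day, so a difference past 1 log2 unit is only counted. At day 2 no member was higher and 5 were lower by that measure (5.56%, against 4.97% of all genes higher and 4.34% lower). At day 4 it was 2 and 6 (against 7.08% and 7.95%), and at day 6 it was 1 and 1 (against 12.4% and 6.29%).

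Ndufa4l2 and Cox7a1 were again among the genes with the largest drops. Ndufa4l2 read 7.76 FPKM at day 0, 0.39 at day 2, 1.21 at day 4 and 5.42 at day 6. Cox7a1 read 32.5, 21.1, 11.8 and 21.4. Cox4i2, the form of subunit IV linked to lung and low oxygen, was the member past 1 log2 unit above day 0 at day 6, at 8.35 FPKM against 1.85, and Sdhaf1 was the one below, at 1.88 against 9.91. Cox5a, a subunit of the matrix side, went from 114 to 56.2, 56.3 and 70.4. At day 4 the members past 1 log2 unit above day 0 were Sdhc (51.4 against 19.9 FPKM) and Ndufs5 (115 against 44.4). The largest differences above 0 at day 2 were small, led by Uqcrb (608 against 467 FPKM), Ndufb7 (225 against 175) and Ndufa13 (99.2 against 77.3). Sdhaf2 read 10.1 FPKM at day 0, 13.2 at day 4 and 14.8 at day 6.

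Of the 18 genes that fell in WT on RA, 15 were below their day 0 level at day 2 of LIF withdrawal, 14 at day 4 and 17 at day 6, where Ndufb8 was above it at 295 against 202 FPKM. Of all 90 genes, 74, 70 and 64 were below on the same days, so the shares were alike at days 2 and 4; no test was made of day 6. The sets of cells share neither line nor medium, and the tables were normalized separately.

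ME cells had the lowest levels. Of the members, 43 of 90 had their lowest value of the 7 columns there, 77 were below day 0, and the median difference was -0.46 against -0.01 over all genes. By the measure of 1 log2 unit, 14 were lower (15.6%, against 10% of all genes) and none was higher (against 9.71%). Complex I accessory genes gave 6 of the 14. Ndufb6, for example, read 10.3 FPKM in ME against 35.3 at day 0, and Uqcrq 152 against 433. Atp5b read 1938 in ME and 1935.5 at day 0, and Ndufaf4, Ndufb11 and Ndufb8 had the largest differences above 0 (+0.52, +0.45 and +0.24). Cox7a1 read 8.74. Core genes of complex I were all below day 0 there (7 of 7, median -0.44).

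NSC had the highest levels: 44 of 90 members had their highest value there, 59 were above day 0, and the median was +0.22 against +0.06 over all genes. The members held 4.20% of the summed FPKM in NSC, against 2.65% to 3.21% in the other columns. Past 1 log2 unit, 2 were higher and 6 were lower (against 19.9% and 16.5% of all genes), so most differences were under 1 log2 unit. The 2 were Ndufa2 (163 against 78.0 FPKM) and Ndufs8, an iron-sulphur core subunit (84.7 against 41.1), and Ndufa12 came next (362 against 186). Against this, Cox7a1 fell to 2.52 from 32.5 FPKM and made up 6.54% of its pair with Cox7a2, against 46.0% at day 0, and Ndufa4l2 read 0.04.

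NPC, from the same line as NSC and harvested before expansion, did not share the high levels. There 64 of 90 members were below day 0 and the median was -0.24, against +0.07 over all genes. Past 1 log2 unit, 1 was higher and 5 were lower (against 14.8% and 11.3%). Cox7a1 read 22.6 FPKM in NPC, and Cox6b2 147, above Cox6b1 at 141, so that Cox6b2 held 50.9% of the pair, the largest share of the 7 columns. NPC also had the highest Ndufb8, at 422 against 202 at day 0, and Ndufb11 read 56.4 against 31.7. Ndufa4l2 read 1.79. Sdhaf1 and Ndufs5 were among the 3 largest drops in most columns: Sdhaf1 from 9.91 FPKM at day 0 to 0.000182 at day 2, 0.000278 in ME and 0.000305 in NPC, and Ndufs5 from 44.4 to 4.81 at day 2, 6.04 in NSC, 3.75 in ME and 4.68 in NPC. Both also varied by more than 1 log2 unit between RA libraries of 1 group.

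**Figure D5:**
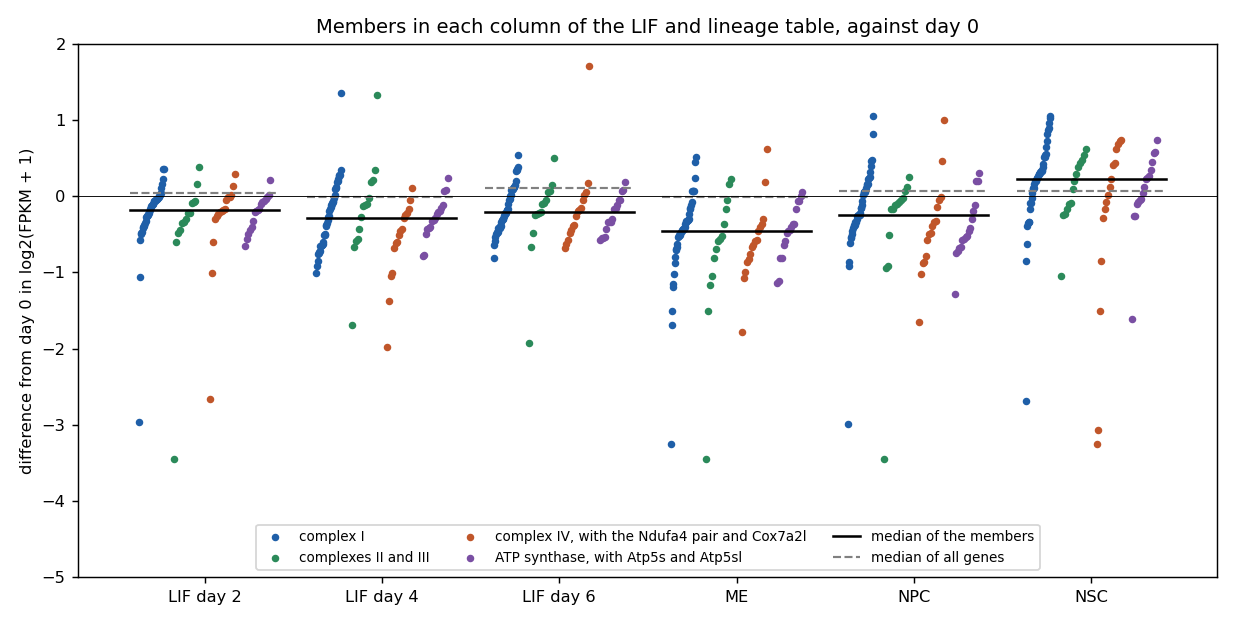
Difference from day 0 in log2(FPKM + 1) for each of 90 members, coloured by complex, in 6 columns of the LIF and lineage table; black lines are medians of the members and dashed lines medians of all 12510 genes. The black line lies below the dashed one in 5 columns, farthest in ME (-0.46 against -0.01), and above it in NSC (+0.22 against +0.06).

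Genes that work with these complexes were read from 5 further lists. Cytochrome c (Cycs), the carrier between complexes III and IV, fell in WT from 24.3 and 28.6 FPKM to 19.0 and 16.7 (-0.54, limma adjusted p = 0.0175) and in KO from 26.9 and 29.3 to 18.5 and 18.2 (-0.59, adjusted p = 0.02). Cyc1, the cytochrome of complex III, and Usmg5, a small ATP synthase subunit, did not pass.

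Of 15 assembly genes of complexes III to V, 1 was higher and 1 lower in WT, and 2 were lower in KO. Here and in the lists that follow, counts this small stand against 14.4% of all genes higher and 10.9% lower in WT, and 10% and 7.81% in KO, and set no list apart. Cox17, the copper chaperone of complex IV, fell from 173 and 192 FPKM to 91.5 and 74.8 in WT (-1.13, SE 0.20, limma adjusted p = 0.00746) and from 146 and 198 to 74.6 and 104 in KO (-0.94, adjusted p = 0.0215). Cox18, a membrane insertase, fell in KO (-0.71, adjusted p = 0.00659) and differed by -0.21 in WT. Atpaf2, a chaperone of the F1 alpha subunit, rose in WT (+0.43, adjusted p = 0.0346).

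Of the 14 tested genes of mitochondrial biogenesis and mtDNA expression, 2 were lower in WT, the polymerases Polg (-0.50, limma adjusted p = 0.0112) and Polrmt (-0.38, adjusted p = 0.0442), and none passed in KO. Nrf1, Gabpa and Yy1, whose core letters were searched above, differed by -0.19, -0.25 and -0.09 in WT without passing. Of 14 citrate cycle genes, Idh3a, a subunit of isocitrate dehydrogenase, was lower in WT (-0.89, adjusted p = 0.00758), and none passed in KO. Of 4 carriers, the ADP/ATP exchanger Slc25a5 was lower in WT and KO (-0.49 and -0.52, adjusted p = 0.0307 and 0.0353), and its relative Slc25a4, the heart and muscle form, was higher in WT (+0.55, adjusted p = 0.0216). No gene of the 5 lists passed for 58 kb KO against WT at either day or for the difference of the day effects.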

How the data were processed

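The deposited tables hold FPKM values; no header names the unit, which was judged from their range and steps. Per the submitters' processing notes, CASAVA, Bowtie 1.0.0, TopHat2 2.0.11 and MACS 1.4.2 were named, with build mm9; which program made the values is not named. Of 54 samples, 20 enter the tables and 34 were not used. RA values were fitted as log2(FPKM + 1) for the 15705 genes reaching 1 FPKM in 2 or more of the 8 libraries, with limma 3.58.1 (R 4.3.3; intensity trend, 4 groups, 4 residual and 3.50 prior degrees of freedom). P-values were adjusted by Benjamini-Hochberg over all genes, with a threshold of 0.05. On simulated data for 58 kb KO against WT at day 2 (15705 genes), 60.0% of genes changed by 1 log2 unit and 100% by 2 were recovered, with 17 false calls. Noise there was drawn from a spread smoothed over genes of similar level, so recovery in the real data may be lower. The LIF columns of days 0, 2 and 6 carry more than 6 significant digits in 59.8% to 75.8% of their values, against 15.9% to 17.5% in the others, and were judged means on that ground. The LIF table got no test; 12 entries with repeated symbols or missing values were left out.

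Alternatives were another pseudocount, no filter, upper-quartile scaling, a replicate block and leaving out each library. The labels do not name separate cultures behind the libraries of 1 group: the p-values therefore reflect the spread of these libraries alone, possibly a technical one. No source states strand use in counting, and overlapping and antisense genes and near-identical copies are uncertain. Library depth came from the spacing of low values. Genes named by rule were, for each RA comparison and direction, up to 8 called members with the smallest p, or the 3 with the smallest p where fewer than 3 passed; the lists of complex I core, complex II, complex III core, F1, c ring and complex IV isoform genes; the 3 largest LIF differences per column and direction among members of at least 5 FPKM in either column; and up to 5 genes of each pathway list. Other names illustrate a count and were chosen after their values were seen. The members and lists were chosen with earlier results of these data known. Values of 1 member are not reported here.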

Additional observations from a re-analysis of the deposited data

How the results depend on the processing

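Counts of members called stayed at 0 for 58 kb KO against WT at both days and for the difference of the day effects under every alternative run. For day 4 against day 2, a pseudocount of 0.1 gave 18 calls in WT and 9 in KO, the same genes. With no filter there were 13 in WT and 5 in KO. Upper-quartile scaling gave 27 in WT, all lower, and 16 in KO, 15 lower and 1 higher. Lower calls over all genes then went from 1713 to 2078 in WT and from 1226 to 1450 in KO. Leaving out 1 library gave 5 to 8 calls in WT and 2 to 9 in KO; a group left with 1 library was assumed to vary like the others. With the library name as a replicate block, 25 (WT) and 21 (KO) members passed in either direction as a fixed term and 30 and 20 as a random term. Over all genes, lower calls alone were 2133 (WT) and 1660 (KO) with the fixed term, and 2366 and 1869 with the random term. The random term was added for these contrasts after the data were seen. The labels do not say what a shared name means. Deviations of same-named libraries from their group means correlated at 0.08 in WT and 0.26 in KO over 15705 genes, and the names were not taken as pairs. Same-named KO libraries did share a shift at both days, on chromosome 1 in KO-i and chromosome 6 in KO-j. The KO counts without a block may therefore ignore a pairing. Upper-quartile scaling moved the LIF medians to -0.19 (day 4), -0.29 (day 6) and +0.14 (NSC), with no change of sign in any column. The cause was not tested. Levels near 1 FPKM rest on few reads, and 4 residual degrees of freedom limit the tests.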

Other observations

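A few members differed between libraries of 1 group far more than the rest. Libraries of 1 group differed by a median of 0.11 to 0.18 log2 units over the 92 genes tested. Ndufs5, an accessory subunit of complex I, stood at 34.8 and 16.4 FPKM (WT) and 88.7 and 37.3 FPKM (KO) at day 2, then 5.32 and 28.8 in WT and 91.1 and 43.6 in KO at day 4, and from 3.75 (ME) to 115 (day 4) in the LIF and lineage table. Uqcrb, the ubiquinone-binding subunit of complex III, read 11.9 and 62.9 in WT-1 and WT-2 at day 2 and 69.4 and 33.5 at day 4. Sdhaf1, an assembly factor of complex II, was 0.000836 to 0.00254 FPKM in WT-1 and KO-i over both days and 3.07 to 6.75 in WT-2 and KO-j. Differences of these 3 genes in the text carry that spread.

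The order of members differed between the tables. Across 94 genes the log2 levels of RA WT at day 2 and LIF day 0 had Pearson's r = 0.853, against 0.964 for LIF day 0 and NPC; genes are not independent replicates, and the RA libraries were made with another kit than those of the LIF set, per the labels. Atp5g2 ranked 5 of 94 in RA WT at day 2 and 65 at LIF day 0 (537 and 40.1 FPKM), Cox6a1 3 and 42 (706 and 115), and Uqcrb 73 and 6 (37.4 and 467). NPC, of the line used for RA, had Atp5g2 at rank 60.

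A list of 76 genes named Mrpl or Mrps, which encode the mitochondrial ribosome and were added after the data were seen, had 6 lower and 2 higher calls in WT from day 2 to day 4 of RA in limma, with a median of -0.13, and 3 lower and 1 higher in KO. Of all genes, 10.9% were lower and 14.4% higher in WT, and 7.81% and 10% in KO, so these counts are no excess.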
